A study of Drosophila melanogaster with 23 samples.

Results

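The genes described here encode subunits of cytochrome c oxidase, complex IV of the mitochondrial respiratory chain. They are CoIV, CoVa, CoVb, levy, CoVIb, cype, CoVIIc and CoVIII, taken by their symbols as the deposited counts list them, which makes 8 of 17521 genes. All 8 were found, none was at 0 in any library, and all 8 passed the filter on low counts in each sex. RNA was sequenced from whole brains of Canton-S flies, a wild-type laboratory strain of Drosophila melanogaster, at 5, 20, 30 and 40 days after eclosion in females and in males. Each library came from a pool of 18 dissected brains, and a library is named here by sex, age and replicate letter, so that F40B is replicate B of the 40-day-old females. There were 3 libraries per sex and age, 23 in all, with only M30B and M30C for 30-day-old males because the study set the third aside for female contaminants. The labels name no transgene or treatment, and males and females were aged in separate vials. Libraries were numbered age by age, so whatever those numbers mark, which is not given, cannot be told apart from age.

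Cytochrome c oxidase takes electrons from cytochrome c, passes them to oxygen and pumps protons across the inner mitochondrial membrane. Its catalytic core is encoded by mitochondrial DNA, and the nuclear genome encodes a ring of smaller subunits around that core which stabilise the complex and tune its activity. Neurons depend on this chain for most of the ATP that synaptic transmission and ion pumping use. Whether nuclear subunit transcripts changed with age in the brain, at which age, and equally in both sexes are the questions the design allows.

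The 8 genes lie on 5 chromosome arms, so they are no gene cluster. In Release 6 (dm6) coordinates CoIV is at 2L 19958713 to 19960065 on the plus strand, CoVb at 2L 6557800 to 6559308 on the plus strand and cype at 2L 5327227 to 5327969 on the plus strand. CoVIIc is at 2R 10048353 to 10050066 and levy at 2R 23548239 to 23548982, both on the plus strand. CoVa is at 3R 11819359 to 11820299 on the plus strand, CoVIII at 3L 21538859 to 21539447 on the minus strand and CoVIb at X 19740537 to 19744335 on the minus strand. Newer annotation calls CoIV COX4, CoVa COX5A, CoVb COX5B, CoVIb COX6B, CoVIIc COX7C and CoVIII COX8, while cype and levy have kept their names. The genes are short, with exons that cover 513 bases in CoVIII to 1231 bases in CoIV. Exons of 4 of them overlap a neighbour: CoVa shares 44 bases with glo, CoVIb 74 bases with CG18809, CoVIIc 134 bases with oys and levy 16 bases with pita. Reads in those stretches may have been left uncounted. CG18809 lies on the same strand as CoVIb, so for this pair the strand setting of the counting makes no difference. It does for glo, oys and pita, which lie on the opposite strand, and that setting is not given in the sources used here.

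Levels are in CPM, the usual unit of a count relative to the total of its library, after scaling by TMM, a method that sets libraries to a common scale from the bulk of their genes. Total counts ran from 6770442 to 28687450 with a median of 15628443. They were 21133499 to 28687450 at 5 days and 6770442 to 16124005 at 40 days, so the 5-day libraries were deeper than the 40-day ones. Depth did not simply follow age, as F30C, M30B and M30C were at 25126334, 25981392 and 22379344. F30A and F30B were at 12541109 and 12735231. The lowest count of any member was 453, for CoVIII in F40B, where counting error alone has a coefficient of variation of 4.7%. Markers of neurons (elav, nSyb, Syt1, brp) and glia (repo, nrv2, Gs2, moody, wrapper) were above 0 in every library, as the label brain requires. Retinal genes summed to 2204 to 33270 CPM and digestive enzyme genes to 0.765 to 22284 CPM, so tissue beside the brain was present in amounts that differed between libraries. The midgut gene mex1 exceeded 10 CPM in M40C and in the females F5B, F30A, F30B and F40A, called the mex1 libraries. A gene is said to have risen or fallen when it passed a 5% false discovery rate (FDR) both in edgeR's quasi-likelihood F test over the 4 ages of a sex and in the test of the 2 ages compared, each adjusted over all genes tested.

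All 8 genes fell with age in female brains, and their levels at 40 days were 42.2% to 53.3% of those at 5 days. In males the 40-day levels were 48.2% to 67.6% of those at 5 days, but only CoVIIc passed both tests. No member rose in any comparison. Together the 8 genes took 0.191% to 0.252% of all counts in 5-day-old females and 0.105% to 0.111% in 40-day-old females. The corresponding shares were 0.229% to 0.258% in 5-day-old males and 0.13% to 0.154% in 40-day-old males, so the groups did not overlap in either sex. In RNA from whole brains, fewer cells of a type that is rich in these transcripts and less of the transcripts per cell cannot be told apart.

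**Figure D1:**
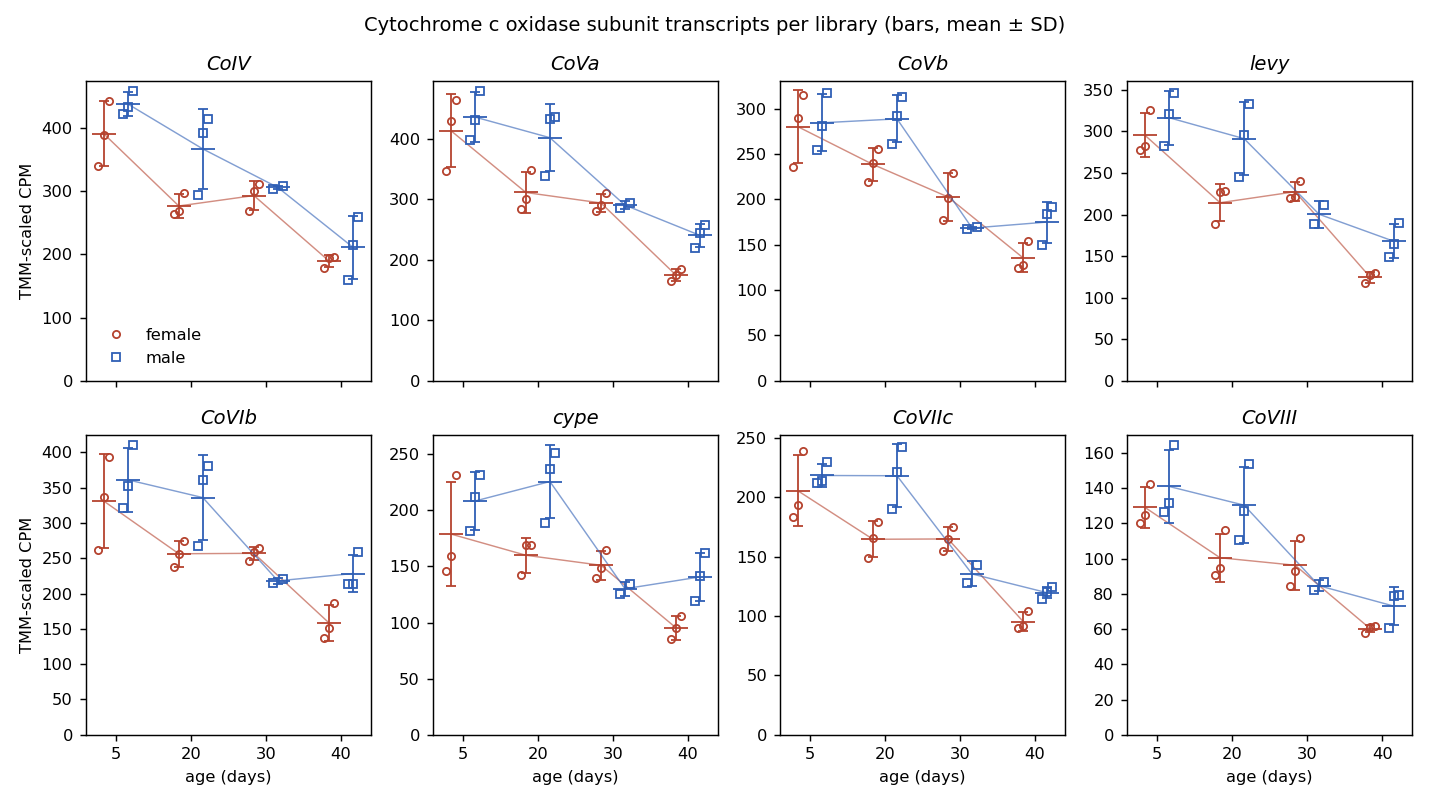
Level of each gene in TMM-scaled CPM (vertical axes, from 0) by age in days, with females as circles and males as squares. Each open symbol is 1 library, set side by side in order of value within a group, and bars give mean ± SD with n = 3, or n = 2 in 30-day-old males. For every gene the lowest 5-day library of a sex lies above the highest 40-day library of that sex.

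The subunits on the matrix side of the complex come first. CoIV encodes subunit 4, which in mammals is a site where ATP acts on the enzyme. In females CoIV was at 443, 389 and 340.0 CPM in F5A, F5B and F5C, at 269, 297 and 263 CPM in F20A, F20B and F20C, at 300.5, 311 and 268 CPM in F30A, F30B and F30C, and at 196, 178 and 194 CPM in F40A, F40B and F40C. All 9 older libraries were below all 3 young ones, and the 40-day libraries were below all others. In males CoIV was at 422, 433 and 459 CPM at 5 days, at 414, 295 and 392 CPM at 20 days, at 307 and 304 CPM at 30 days (M30B and M30C), and at 259, 215 and 159 CPM at 40 days, in the order A, B, C. CoIV is the only member whose 20-day male libraries all lay below the 5-day ones. Its log2 fold change at 40 against 5 days was −1.04 in females (SE 0.13, edgeR adjusted p = 0.00133) and −1.05 in males (SE 0.19, adjusted p = 0.0254). The male value failed the first of the 2 tests, with an adjusted p of 0.117 over the 4 ages.

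CoVa and CoVb encode the globular subunits 5A and 5B, of which 5B binds zinc. CoVa had the highest mean CPM of the 8 genes in 5 of the 8 groups and CoIV in the other 3, and CoVa and levy had the largest falls in females. Its level went from 464, 429 and 347 CPM in F5A, F5B and F5C to 184, 165 and 174 CPM in F40A, F40B and F40C (log2 fold change −1.24, SE 0.15, edgeR adjusted p = 0.00109). In males it went from 430.3, 398 and 480 CPM in M5A, M5B and M5C to 244, 220.0 and 257 CPM in M40A, M40B and M40C (−0.85, SE 0.16, adjusted p = 0.0252). The groups were far apart in both sexes, with no overlap. CoVb went from 280.0 ± 40.3 CPM (SD, n = 3) in 5-day-old to 135 ± 15.98 CPM (n = 3) in 40-day-old females, and from 284 ± 31.3 to 175 ± 22.6 CPM in males. Its log2 fold change was −1.04 in females (SE 0.15, adjusted p = 0.0028) and −0.70 in males (SE 0.15, adjusted p = 0.0425). In males neither CoVa (adjusted p = 0.0953) nor CoVb (adjusted p = 0.0855) passed the F test over ages.

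levy encodes subunit 6A, and levy mutant flies are paralysed by heat and lose neurons with age. It was the only member called lower at 20 days in females. In females levy was at 326, 282 and 278 CPM in F5A, F5B and F5C, at 228, 227 and 188 CPM at 20 days, at 241, 220 and 222 CPM in the 30-day group, and at 130, 117 and 127 CPM in F40A, F40B and F40C. The 20-day and 30-day libraries interleaved, and the 40-day libraries stood below them. The log2 fold change was −0.48 at 20 days (SE 0.11, edgeR adjusted p = 0.046), −0.43 at 30 days (SE 0.11, adjusted p = 0.0401) and −1.24 at 40 days (SE 0.11, adjusted p = 0.000528). In males levy was at 282, 321 and 347 CPM at 5 days, 333, 245 and 296 CPM at 20 days, 189 and 212 CPM at 30 days, and 189, 165 and 149 CPM at 40 days. The young and 20-day male libraries overlapped, and all 30-day and 40-day ones were lower. The male change at 40 days was −0.91 (SE 0.16, adjusted p = 0.0239, with 0.0917 in the F test over ages).

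CoVIb encodes subunit 6B, which faces the intermembrane space where cytochrome c docks, and cype (cyclope) encodes the homologue of subunit 6C. They had the smallest fitted changes of the 8 genes in males at 40 days. CoVIb was at 331 ± 66.4, 256 ± 18.4, 257 ± 9.6 and 158 ± 25.2 CPM at 5, 20, 30 and 40 days in females (SD, n = 3 each), and at 361 ± 45.5, 336 ± 60.3, 218 ± 4.0 (n = 2) and 228 ± 26.8 CPM in males. For cype the values were 179 ± 46.2, 160.0 ± 15.6, 151 ± 12.9 and 95.3 ± 10.4 CPM in females and 208 ± 25.5, 226 ± 32.7, 130.1 ± 6.3 and 141 ± 21.6 CPM in males. Both were at their lowest at 40 days in females, and their mean CPM showed no further drop after 30 days in males. Once a trend with transcript length, described below, was removed, all 8 members were below 0 in that male step, from −0.57 to −0.05. At 40 against 5 days CoVIb changed by −1.05 in females (SE 0.17, edgeR adjusted p = 0.00447) and stood at −0.66 in males (SE 0.17, adjusted p = 0.0735). cype changed by −0.90 in females (SE 0.17, adjusted p = 0.0106) and stood at −0.56 in males (SE 0.17, adjusted p = 0.103).

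CoVIIc and CoVIII encode small subunits, 7C and 8, that each cross the inner membrane a single time. CoVIIc was the only member that fell in males, and that call was lost with the replicate letter as a block. In males CoVIIc was at 213, 212 and 229 CPM in M5A, M5B and M5C, at 242, 190.1 and 221 CPM at 20 days, at 128 and 143 CPM at 30 days, and at 124, 119.8 and 114.6 CPM in M40A, M40B and M40C. The spread within the 5-day and 40-day groups was small, with SDs of 9.8 and 4.8 CPM. The male log2 fold change at 40 days was −0.86 (SE 0.13, edgeR adjusted p = 0.0178 for the contrast and 0.0365 over ages). In females CoVIIc was at 239, 194 and 183 CPM in F5A, F5B and F5C and fell to 91.5, 105 and 90.0 CPM in F40A, F40B and F40C (−1.10, SE 0.13, adjusted p = 0.00116). CoVIII had the lowest count of the set. It fell in females from 129 ± 11.5 to 60.2 ± 2.1 CPM (−1.09, SE 0.14, adjusted p = 0.00151). Its male levels were 141 ± 20.7 and 72.9 ± 10.8 CPM (−0.94, SE 0.17, adjusted p = 0.0239, with 0.0855 over ages).

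Counted over the set, 8 of 8 members changed over the 4 ages in females and 1 of 8 in males, where 14.5% and 0.287% of all genes tested did. Against 5-day-old females, 1 member fell at 20 days (levy), 3 at 30 days (CoIV, CoVa and levy) and 8 at 40 days. The background of falls among all genes in these comparisons was 1.83%, 4.82% and 4.87%. The median log2 fold change of the 8 genes was −0.38, −0.45 and −1.07, while the median of all genes tested was −0.04, −0.00 and −0.03. The 20-day and 30-day calls sat close to the threshold, with CoIV at 20 days and CoVIII, CoVb at 30 days just outside it (adjusted p = 0.0541, 0.0521 and 0.0585). The 20-day call of levy was lost whichever of the 12 female libraries was left out, and without F5C CoIV was called in its place. The 30-day count was 3 without F5C, with CoVb in place of levy, 1 without F20A or F20B (CoVa) and 0 without any one of the other 9. At 40 days the count was 6 to 8 whichever female library was left out.

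**Figure D2:**
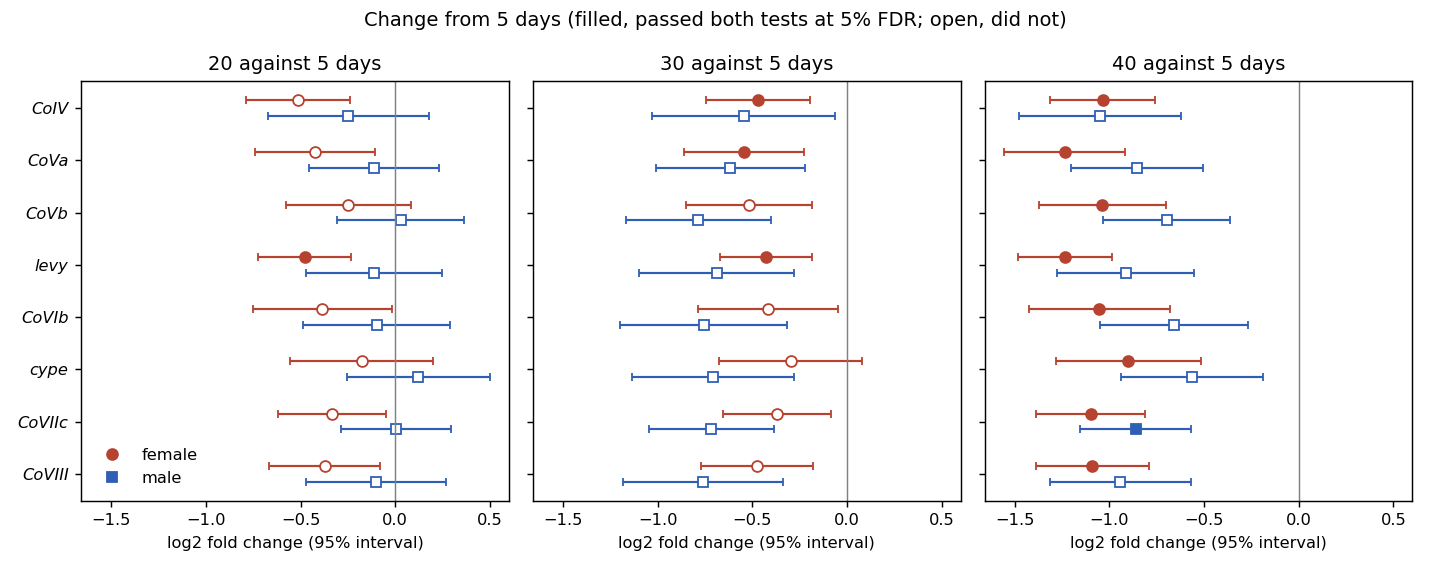
Log2 fold change from 5 days (horizontal axes) of each gene at 20, 30 and 40 days, in females (circles) and males (squares), with 95% intervals from the edgeR fit of that sex. Filled symbols passed both tests at 5% FDR. At 40 days all 8 female values are filled and all 16 intervals lie below 0, while among the male values only CoVIIc is filled.

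In males no member fell at 20 days or at 30 days, and 1 fell at 40 days (CoVIIc), against 0.00926%, 0% and 0.102% of all genes. At an unadjusted p under 0.05, edgeR had 0, 8 and 8 of the 8 members lower at these ages, while 7.28%, 3.74% and 10.7% of all genes were. DESeq2 had 0, 4 and 8 members lower by the same 2-test rule. The percentages of all genes here and below are from edgeR, so the DESeq2 counts have no such share beside them. The medians of the 8 genes were −0.10, −0.71 and −0.86, with medians of 0.01, −0.02 and −0.01 over all genes. Thus at 30 days the fitted male changes exceeded the female ones in size for all 8 genes and yet none passed the edgeR contrast (adjusted p from 0.374 to 0.723), in a group of 2 libraries and in a sex where few genes passed at all. On the contrast alone, without the F test over ages, 6 members were lower at 40 days. The call of CoVIIc at 40 days was kept without M20B and lost without any one of the other 10 male libraries.

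Libraries of the older group lay wholly below those of the 5-day group for 4, 6 and 8 members at 20, 30 and 40 days in females, and for 1, 8 and 8 members in males. Among all genes tested this was so for 14.5%, 17% and 19% in females and for 8.53%, 12.2% and 11.5% in males. The 20-day, 30-day and 40-day comparisons use the same 5-day libraries and are not independent of each other. In females the members that overlapped with the young libraries at 30 days were CoVIb and cype, whose 5-day libraries were the most spread out relative to their mean, with F5C the lowest at 262 and 146 CPM and F5A the highest at 394 and 232 CPM.

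Changes were also taken from each age to the next. In females the median change of the 8 genes was −0.38 from 5 to 20 days, −0.07 from 20 to 30 days and −0.62 from 30 to 40 days. The male medians over these steps were −0.10, −0.66 and −0.16. Libraries also differed in how counts varied with the length of the transcript. Once this length trend was removed the female medians were −0.55, 0.07 and −0.37 and the male ones −0.35, −0.29 and −0.33, so no male step stood out. From 20 to 30 days no member fell in females, with 0 at an unadjusted p under 0.05 in edgeR and 0 in DESeq2 (0% of all genes fell). In the same step no male member fell either (0% of all genes), and 3 did in DESeq2 (CoVb, CoVIIc and cype). At an unadjusted p under 0.05 in edgeR 7 were lower, CoIV being the exception, as were 6.46% of all genes. From 30 to 40 days 6 members fell in females, all but CoVb and cype (adjusted p = 0.0566 and 0.054), where 2.88% of all genes did. The largest change of that step was in levy at −0.81 (SE 0.11, edgeR adjusted p = 0.0169). The female count in this step was 0 without F30A, F30B, F40B or F40C, 4 without F40A and 5 to 8 without any one of the other 7. It was 1 with the length trend removed. Without the mex1 libraries F30C alone is left at 30 days, the calls were lost and the median of this step was −0.68. No male member fell from 30 to 40 days (0% of all genes), and none did in DESeq2. CoIV alone was lower at an unadjusted p under 0.05 in edgeR, as were 3.31% of all genes.

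**Figure D3:**
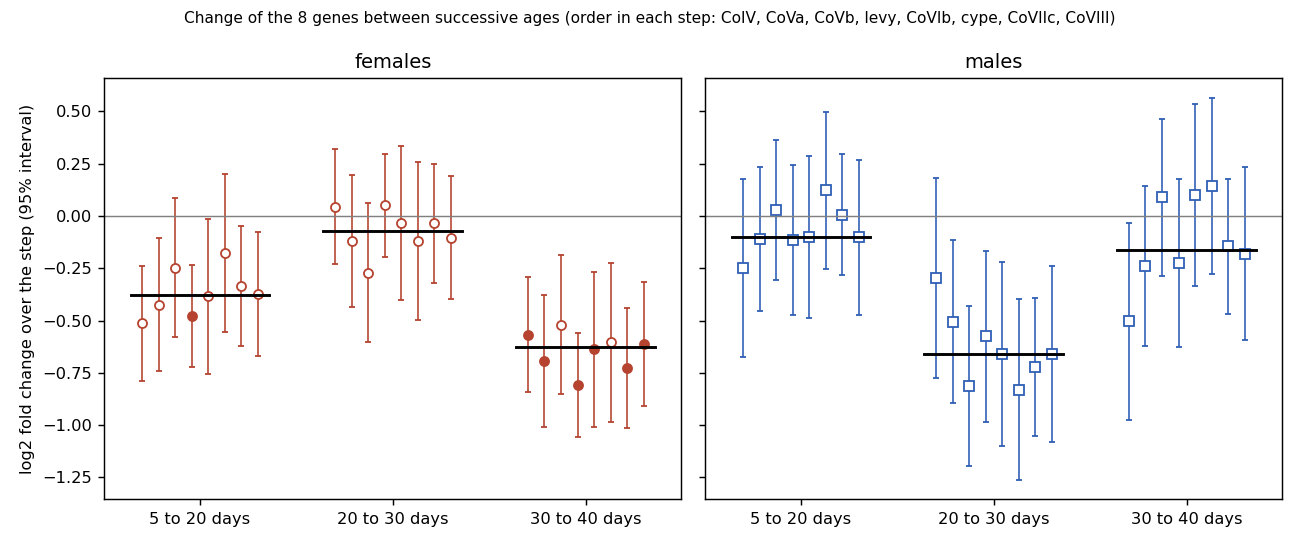
Log2 fold change of the 8 genes over each step between successive ages (vertical axis), in females at left and males at right, with 95% intervals. Within a step the genes stand in the order CoIV, CoVa, CoVb, levy, CoVIb, cype, CoVIIc, CoVIII, filled symbols passed both tests at 5% FDR, and black lines are medians. The female medians are −0.38, −0.07 and −0.62 and the male medians −0.10, −0.66 and −0.16, and with the length trend removed they are −0.55, 0.07 and −0.37 and −0.35, −0.29 and −0.33.

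Whether the sexes differed was tested in a fit of all 8 groups, with the sign of a difference as the female change minus the male change. Against 5 days no member differed at 20, 30 or 40 days in edgeR, 0 did at an unadjusted p under 0.05, and 0 did in DESeq2, and 0% of all genes passed at each age. The medians of the differences were −0.27, 0.30 and −0.33. For CoVIIc the difference at 40 days was −0.24 with a 95% interval of −0.60 to 0.12, and for CoVa it was −0.38 with an interval of −0.77 to 0.01. A difference of that size between the sexes was therefore not resolved with 2 or 3 libraries a group. The steps were compared between the sexes after their values had been seen. From 20 to 30 days the female change lay above the male one by a median of 0.59, and from 30 to 40 days below it by a median of 0.61 (median difference −0.61). With the length trend removed these medians were 0.45 and −0.23. No member passed in edgeR in either step (0% of all genes), with 6 members past an unadjusted p of 0.05 in each, or 4 and 0 with the trend removed. Of all genes, 9.34% lay below 0 at that p in the 30 to 40 day step. The share above 0 in the 20 to 30 day step is not given here. In DESeq2 0 and 3 passed, the 3 being CoVIb, CoVIIc and levy. The values for CoVIIc were 0.69 (SE 0.18, adjusted p = 0.472) and −0.61 (SE 0.18, adjusted p = 0.137). Over all genes the medians of these 2 differences were 0.10 and −0.11.

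Levels themselves were compared between the sexes at each age, as the female level against the male level. No member differed at 5, 20, 30 or 40 days in edgeR or in DESeq2, where 0.168%, 0.344%, 0.997% and 0.362% of all genes differed in edgeR in either direction. The median log2 differences were −0.11, −0.40, 0.20 and −0.40. With unadjusted p-values, 0, 7, 0 and 6 members were lower in females at the 0.05 level, where 1.39%, 6.34%, 12.2% and 6.83% of all genes were. At that level CoVIIc was higher at 30 days. In sign alone, the fitted female level lay below the male level for every member at 5, 20 and 40 days. At 30 days it lay above the male level for all but CoIV, with CoVa at 0.02 (SE 0.15). As no member passed the tests at any age, these signs do not establish a difference between the sexes in any member.

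By 40 days the shares of the members had changed less than their sum, with the shifts in CoIV and cype given below. At 40 days the female log2 fold changes spanned −1.24 to −0.90 and the male ones −1.05 to −0.56. In all 6 comparisons with 5 days the 95% interval of each of the 8 genes held the median of the set. That median comes from the same 8 values and the intervals are wide, so this could hardly have come out otherwise. As a share of the summed CPM of the 8 genes, CoIV held 15.5% to 20.0% and CoVa 16.9% to 18.9% over the 8 group means, the largest shares in all groups but 40-day-old males, where CoVIb at 16.8% exceeded CoIV. CoVIII was the smallest at 5.38% to 5.90%. The share of CoIV went from 18.2% ± 0.54 (SD, n = 3) in 5-day-old males to 20.0% ± 0.40 (n = 2) at 30 days and 15.5% ± 2.43 (n = 3) at 40 days, where M40C stood apart at 12.7% against 16.5% and 17.2%. cype took 7.97% ± 0.97 of the sum in 5-day-old and 9.20% ± 0.43 in 40-day-old females, and 8.65% ± 0.66 and 10.3% ± 0.77 in males (n = 3 each). The cype libraries overlapped between these ages in females and did not in males.

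**Figure D4:**
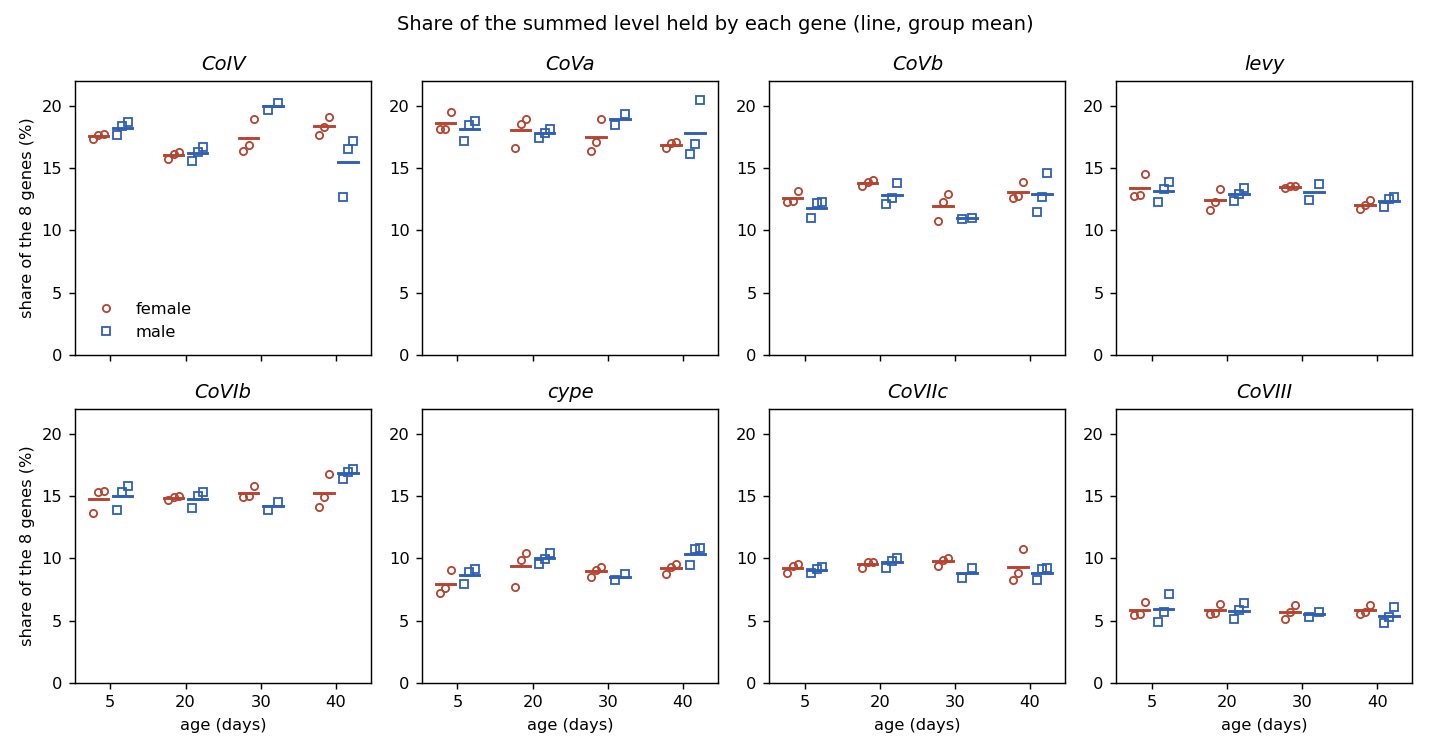
Share in % of the summed CPM of the 8 genes held by each gene (vertical axes, from 0) by age in days, with females as circles, males as squares, 1 symbol per library in order of value within a group, and lines at group means. CoIV and CoVa hold the largest shares in most groups and CoVIII the smallest. The 40-day-old male with the lowest CoIV share is M40C, at 12.7%.

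Across the 23 libraries the log2 CPM of the members rose and fell together. Over the 28 pairs of genes Pearson's r ran from 0.836 (CoIV and CoVb) to 0.973 (CoVIIc and levy), with a median of 0.925. After the mean of each sex and age was taken off, r ran from 0.16 (CoVb and CoVIII) to 0.851 (CoVb and CoVIb), with a median of 0.57. These are descriptions over libraries that share ages and the scaling of the whole library. The 5 genes outside the set whose log2 CPM most resembled the mean of the set were Pglym78 (r = 0.971), ATPsyn-Cf6 (0.969), CG4692 (0.969), ATPsyn-d (0.969) and RFeSP (0.965), over the same 23 libraries. Pglym78 encodes phosphoglycerate mutase, an enzyme of glycolysis, ATPsyn-Cf6, CG4692 and ATPsyn-d encode ATP synthase subunits, and RFeSP encodes the Rieske iron-sulfur protein of complex III.

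Per kilobase of exon, levels can be compared between genes. Beside the 8 members, CG9603, annotated as COX7A, and CG7630, annotated as COX7B, were the other nuclear subunit genes expressed at a like level, and CG7630 was added to the list after its annotation but before its values were seen. Mean levels over the 23 libraries were 465 CPM per kb for CG7630, 404 for CoVa, 390 for levy, 343 for CoVIb, 320 for CG9603, 312 for cype, 307 for CoVb, 251 for CoIV, 199.9 for CoVIII and 195 for CoVIIc. A pair of neighbours in this order was ordered the same way in all 23 libraries only for CoIV above CoVIII, and in 12 to 20 libraries for the other 8 pairs. Differences between neighbours were not tested. The order also depended on the group: CoVb (384 CPM per kb) stood above CG9603 (376) and cype (343) in 5-day-old females, and cype (269.5) above CG9603 (244) in 40-day-old males. The order depends on the length used: by the median transcript length in place of all exons, CoVa ranks 1, CG7630 ranks 2 and CoIV ranks 6 in place of 8.

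CG9603 and CG7630 also fell in 40-day-old females. CG9603 went from 300.2, 279 and 207 CPM in F5A, F5B and F5C to 127, 101 and 111 CPM in F40A, F40B and F40C (log2 fold change −1.21, SE 0.16, edgeR adjusted p = 0.00186). CG7630 went from 283, 231 and 241 CPM to 105, 97.5 and 92.0 CPM in the same libraries (−1.35, SE 0.12, adjusted p = 0.000523) and had also fallen at 30 days (−0.72, SE 0.12, adjusted p = 0.00926). In males at 40 days the values were −0.72 for CG9603 (SE 0.20, adjusted p = 0.0822) and −0.91 for CG7630 (SE 0.16, adjusted p = 0.0252, with 0.061 over ages), neither called.

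The remaining 8 nuclear subunit genes are paralogues, and their transcripts were scarce at every age. CG11043 (COX5BL), which lies next to CoVb on 2L, was at 0.0673 to 3.83 CPM, CG34172 (COX7AL2) at 0.0444 to 2.20 CPM and CG44296 (COX7CL), which lies next to CoVIIc on 2R, at 0 to 1.15 CPM. CG10396 (COX4L), CG30093 (COX6AL), CG18193 (COX7AL), CG14077 (COX6AL2) and CG31644 (COX6CL) had highest values of 1.18, 0.334, 0.345, 0.632 and 0.316 CPM, and were too low to be tested in either sex. The 3 paralogues tested gave no call against 5 days, with edgeR adjusted p-values from 0.192 to 0.994. The mitochondrially encoded subunits were not analysed here.

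Genes needed to build the complex had smaller medians than its subunits, though the lists were not tested against each other. Of 8 assembly genes listed, 7 were tested and Ccdc56 is listed at 0 in every library. Ccdc56 shares its annotated coordinates, 3L 11708979 to 11710570, with mtTFB1, which is also listed at 0. In females at 40 days 2 of 7 assembly genes fell, where 4.87% of all genes did, with a list median of −0.39. CG9065 (Cox17), a copper chaperone for the complex, fell by 1.12 on the log2 scale (SE 0.12, edgeR adjusted p = 0.00107). CG5037 (Cox10), which makes haem O on the way to the haem A of the complex, fell by 0.63 (SE 0.11, adjusted p = 0.00587). bsf, a homologue of the mitochondrial mRNA-binding protein LRPPRC, stood at −0.29 (SE 0.10, adjusted p = 0.0767). In males 0 of 7 fell (0.102% of all genes did), with a list median of −0.36 and 3 genes lower at an unadjusted p under 0.05, as were 10.7% of all genes. Those 3 were bsf at −0.45 (SE 0.13, adjusted p = 0.0885), CG5037 at −0.64 (SE 0.21, adjusted p = 0.128) and CG3803, a homologue of the haem A synthase COX15, at −0.51 (SE 0.18, adjusted p = 0.141).

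Complex III and the ATP synthase, which work with complex IV, also had lower transcripts. Of complex III and cytochrome c genes, 9 of 11 tested fell in 40-day-old females (median −0.97, background 4.87%), among them RFeSP (−1.28, SE 0.13, edgeR adjusted p = 0.00107), CG7580, the ubiquinone-binding subunit gene UQCR-Q (−1.20, SE 0.14, adjusted p = 0.00109), and CG4169, the core subunit gene UQCR-C2 (−1.07, SE 0.13, adjusted p = 0.00109). In males 1 of 12 fell (median −0.57), which was ox, a small complex III subunit (−0.81, SE 0.14, adjusted p = 0.0226 and 0.00764 over ages). RFeSP stood at −1.09 (SE 0.19, adjusted p = 0.0239, with 0.101 over ages) and CG4769, the cytochrome c1 gene, at −0.79 (SE 0.17, adjusted p = 0.0416, with 0.148 over ages) in males. All 12 ATP synthase genes fell in 40-day-old females (median −1.08), where 4.87% of all genes did, with the genes of subunits g, b and f (ATPsynG, ATPsyn-b and CG4692) at −1.13, −1.02 and −1.41 (SE 0.11, 0.11 and 0.16). In males 0 of 12 fell, with a list median of −0.87 and 11 genes below an unadjusted p of 0.05, as were 10.7% of all genes. The male values of smallest p were −1.004 for ATPsynG (SE 0.17), −1.28 for Oscp (SE 0.23) and −1.10 for ATPsyn-b (SE 0.21), none of which passed the F test over ages.

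**Figure D5:**
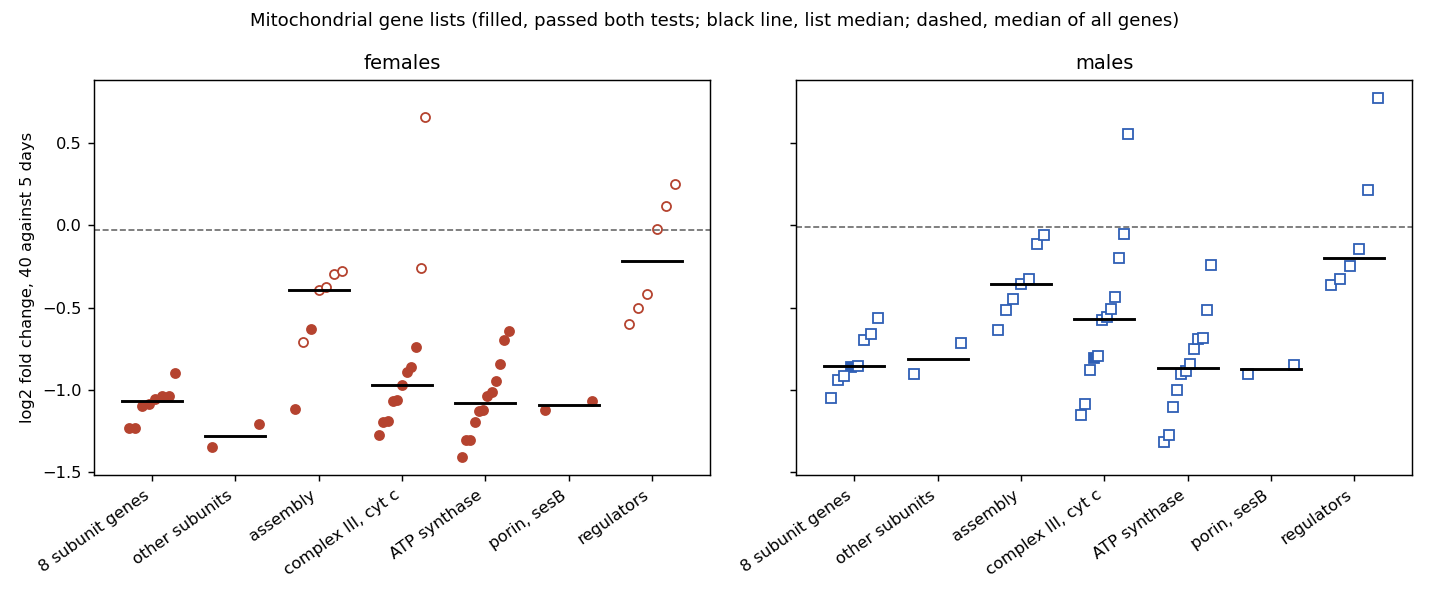
Log2 fold change at 40 against 5 days (vertical axis) of each tested gene in 7 groups of mitochondrial genes, in females at left and males at right, where other subunits are CG9603 and CG7630. Filled symbols passed both tests at 5% FDR, black lines are group medians and the dashed line is the median of all genes tested. In females the medians are −1.07 for the 8 subunit genes, −0.39 for assembly, −0.97 for complex III with cytochrome c, −1.08 for ATP synthase and −0.22 for regulators.

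A mitochondrial channel gene and a carrier gene differed from regulators of mitochondria in their calls at 40 days in females. In males no gene of either list was called at 40 days. porin, the outer membrane channel, and sesB, the ADP/ATP carrier, both fell in 40-day-old females, by 1.12 (SE 0.13, edgeR adjusted p = 0.00107) and 1.07 (SE 0.14, adjusted p = 0.00186), and stood at −0.90 and −0.85 in males. Of 7 regulators listed 6 were tested and 0 fell or rose in either sex at 40 days, with medians of −0.22 and −0.20. In each sex 2 were lower at an unadjusted p under 0.05, as were 15.2% of all genes in females and 10.7% in males. In females TFAM, which packages mitochondrial DNA, stood at −0.60 (SE 0.15, adjusted p = 0.0333, with 0.0643 over ages), mtRNApol, the mitochondrial RNA polymerase, at −0.42 (SE 0.15, adjusted p = 0.0974) and mtTFB2, its transcription factor, at −0.50 (SE 0.24, adjusted p = 0.21). In males srl, the fly homologue of the coactivator PGC-1, stood at 0.78 (SE 0.22, adjusted p = 0.0892), mtRNApol at −0.32 (SE 0.12, adjusted p = 0.165) and TFAM at −0.36 (SE 0.16, adjusted p = 0.237).

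Transcripts of other cells moved between libraries too, and their part in these changes was not tested. The 4 neuron markers summed to 3012 to 4678 CPM at 5 days and 3015 to 3667 CPM at 40 days in females (list median 0.03, 0 of 4 called) and to 2410 to 4846 and 2252 to 4008 CPM in males (median −0.21, 0 of 4 called). They were lowest in 30-day-old females at 1732 to 2303 CPM, where 2 of 4 fell against 5 days, as did 4.82% of all genes. The median of the neuron markers there was −0.85 against 5 days and −0.46 against 20 days, beside −0.45 and −0.07 for the members. The 5 glia markers summed to 4468 to 7550 CPM at 5 days and 2770 to 3460 CPM at 40 days in females (1 of 5 fell, median −0.21). Among all genes 4.87% fell in that comparison. In males the glia markers summed to 5109 to 8183 and 2873 to 4857 CPM (0 of 5, median −0.24). In neither sex did the groups overlap, as was so for 19% and 11.5% of all genes, taken singly. Gs2 and nrv2 make up most of this sum, with medians over libraries of 2231 and 1811 CPM against 217 CPM or less for the others. In 20-day-old females the glia sum, 4347 to 4927 CPM, overlapped that at 5 days. The members' sum did not, at 1618 to 1841 against 1916 to 2555 CPM. The 19 muscle markers summed to 889 to 2430 CPM at 5 days and 1234 to 2426 CPM at 40 days in females (0 of 19 fell and 2 rose, median −0.16). Of 10505 genes tested, 259 rose in that comparison. In males the muscle markers summed to 1182 to 2289 CPM at 5 days, 828 to 877 CPM at 30 days and 806 to 1974 CPM at 40 days. Their median in 30-day-old males was −1.30, with 13 of 19 lower at an unadjusted p under 0.05 and 0 called, in the comparison where all 8 members were lower at that p. Of all genes, 3.74% were lower at that p there. The flight muscle genes Act88F, TpnC4 and fln were at 0.585 to 11.9, 0 to 1.58 and 0 to 2.16 CPM. Fat body markers summed to 22187 to 62259 CPM in 5-day-old and 3793 to 10423 CPM in 40-day-old females, and retinal markers to 2204 to 26593 and 8890 to 12895 CPM in the same groups.

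Leaving out the 5 mex1 libraries kept the medians of the changes and removed the calls. These medians were then −0.39, −0.44 and −1.15 at 20, 30 and 40 days in females. They were −0.12, −0.69 and −0.82 in males, in fits with 8 female and 10 male libraries. F30C was then the only 30-day-old female library, so the female 30-day median rests on it alone. F30C also had the highest fat body sum of all libraries, 115190 CPM. Digestive enzyme genes still summed to 1386.5 CPM in F30C and 3488 CPM in M20A, so the libraries kept were not free of gut RNA. The 5-day and 40-day females were down to F5A, F5C, F40B and F40C. In males edgeR called 0 members in each comparison. The members are short, and with the length trend removed the female medians against 5 days were −0.55, −0.48 and −0.85 and the male ones −0.35, −0.61 and −0.90, and 5, 5 and 7 members fell in females and 0, 0 and 5 in males. The sign at 30 and 40 days was the same for all 8 genes in both sexes under both of these alternatives.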

How the data were processed

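RNA from pools of 18 brains was made into cDNA with the Ovation Universal RNA Seq kit for Drosophila and sequenced in 23 libraries. Read trimming (Trimmomatic 0.35), alignment to the dm6 genome (STAR) and counting by gene (HTSeq-count, union mode) were done by the authors, who deposited raw counts with no normalization. Groups came from the sample titles. The study's two-step rule was followed with edgeR 4.0.16 (limma 3.58.1, R 4.3.3): filterByExpr, TMM, a robust quasi-likelihood fit of each sex alone, and a 5% FDR (Benjamini-Hochberg) over all 10505 genes tested in females or 10799 in males, both in the F test over ages and in the contrast. Sexes were compared in 1 fit of 8 groups and 11332 genes. All tests are two-sided, and p-values measure the spread between pools. Positions and exon lengths came from Release 6 annotation by symbol or older symbol, with 194 symbols unmatched.

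The members and all gene lists were chosen with earlier results of these data known. The rule for named genes was all 8 members, every other measured subunit gene, at most 3 genes of smallest p at 40 against 5 days per sex and list, and the 5 genes most like the members. Of the other subunit genes, 4 were added after the annotation but before their values were seen. Comparisons of the steps between the sexes were added after the values were seen. The similarity of genes used log2(CPM + 1).

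Alternatives were DESeq2 1.42.0, DESeq2's size factors, library totals, no count filter, the replicate letter as a block, removal of a smooth trend with exon length (lowess span 0.3), the libraries with mex1 above 10 CPM left out, the pairwise test alone, both sexes in 1 fit, only the 2 ages compared, and each library left out in turn. Total counts were 6770442 to 28687450. The code was checked on data with known answers.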

Additional observations from a re-analysis of the deposited data

How the results depend on the processing

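At 30 and 40 days the log2 fold changes of the 8 members kept their sign in both sexes under the 19 female and 18 male alternatives for which fold changes were computed, from −0.65 to −0.06 and −1.35 to −0.67 in females and from −0.84 to −0.42 and −1.20 to −0.44 in males. Fold changes were not kept for the pairwise test alone, both sexes in 1 fit and only the 2 ages compared, which gave counts. At 20 days 1 of 152 female and 21 of 144 male values changed sign. The number of members called moved more, and unless stated the cause was not tested. Against 5 days the female counts were 1 at 20 days and 3 at 30 days. They became 2 and 5 with DESeq2, 0 and 1 with DESeq2's size factors, 2 and 4 with library totals, 0 and 1 with no count filter, 5 and 5 with the length trend removed, 0 and 1 with both sexes in 1 fit, and 0 and 0 with only the 2 ages compared. The male count at 40 days was 1, and it became 8 with DESeq2, 5 with the length trend removed, 6 with the pairwise test alone, 7 with both sexes in 1 fit and 0 with only the 2 ages compared. The male count over ages was 1, and became 8 and 5 in the first 2 of these. DESeq2 called 4 male members at 30 against 5 days, 3 at 30 against 20 days and 3 in the sex difference of 40 against 30 days, where edgeR called 0. The shares of all genes that DESeq2 called are not given here. The female count at 40 against 30 days was 6 and became 1 with the length trend removed. Without the mex1 libraries, a smaller set of samples, the male counts became 0 over ages and at 40 days. The female calls were lost too, in a fit where F30C is the only 30-day-old library.

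Leaving out 1 library at a time gave 0 to 1 members in females at 20 days, 0 to 3 at 30 days, 6 to 8 at 40 days and 0 to 8 at 40 against 30 days, and 0 to 1 in males over ages and at 40 days. Under the replicate block, which fits the letters as a term, the male counts over ages and at 40 days became 0. Whether the letters pair the samples is not stated in the sources used, and correlations between libraries do not settle it. Deviations from the group means of same-letter libraries correlated with a median r of 0.086 in females (8 of 18 pairs above 0.1) and −0.027 in males (2 of 15). For libraries of unlike letters the medians were −0.075 (13 of 36) and 0.045 (13 of 30). In females r ran from −0.651 to 0.669 for same letters and from −0.671 to 0.714 for unlike letters. In the male 20-day comparison the log2 fold change of CoVIIc was at 0.01 and became −0.0087 with DESeq2, −0.0082 with its size factors, −0.0143 with no count filter, −0.23 with the length trend removed and −0.0090 without the mex1 libraries. CoVb and cype became −0.22 and −0.15 with the length trend removed. With 1 library left out at a time, the values in this comparison ran from −0.054 to 0.128 for CoVb, −0.217 to 0.031 for CoVIb, −0.098 to 0.083 for CoVIIc and −0.255 to 0.015 for CoVIII, and those of cype in females at 20 days from −0.297 to 0.054.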
